A study of Homo sapiens with 4 samples.

Results

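The 9 genes described here are MDM2, MDM4, TP53I3, GDF15, GADD45A, SESN1, SESN2, BTG2 and TP53INP1, chosen by name as regulators and stress targets of the transcription factor p53. Each was found as 1 row of the deposited expression table, so they are 9 of its 23576 rows and 9 of the 12810 genes that the authors tested. RNA was sequenced from SH-SY5Y, an established human neuroblastoma line that is known to carry wild-type p53. The differentiated group (2 libraries) was taken at day 16. Its cells had first received 10 µM retinoic acid in reduced serum for 7 days, then 20 ng/mL of the neurotrophin BDNF in serum-free medium for 9 days. The undifferentiated group (2 libraries) was day 0 cells of the same line, kept in 10% serum with neither agent. Differentiation, serum and time in culture therefore changed together and cannot be told apart. The table holds 1 FPKM value per gene and group (fragments scaled to transcript length and library size), and no value per library, so a level has no error and no exact permutation test over libraries could be made. Nothing in the labels says that the libraries came from separate cultures, so the q-values may measure technical spread only. The p53 gene itself is not among these 9 genes and was not analysed here.

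In unstressed cells p53 is kept low by MDM2, a ubiquitin ligase that marks it for destruction, and by the related MDM4, which covers its activation domain. DNA damage and other stress free p53, which then switches on genes that slow the cell cycle, limit oxidative damage, restrain growth signalling or start cell death. MDM2 is itself one of these targets, which closes a feedback loop. Several targets also answer to other regulators: GDF15, GADD45A and SESN2 are induced by the stress factor ATF4 as well, and SESN1 by FOXO factors.

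In differentiated cells GDF15 and GADD45A were higher, MDM2, MDM4 and TP53I3 were lower, and SESN1, SESN2, BTG2 and TP53INP1 did not pass the authors' test. By the calls of the authors' deposited table (q below 0.05), 5 of the 9 genes passed, where 30.4% of all tested genes did. Of these, 2 were higher, where 2.43% of all tested genes were, and 3 lower, where 28.0% were. Most of the table was lower in differentiated cells. Among the 11169 genes averaging at least 1 FPKM, 84.0% had a negative log2 fold change, with a median of -0.62 and quartiles of -0.96 and -0.23. A second test set each gene against that median gene, a two-sided normal test with the standard error implied by the authors' statistic and Benjamini-Hochberg adjustment over the 11169 genes. By that test 3 of the 9 genes were apart from the median gene, as 10.2% of all genes were. GDF15, GADD45A and BTG2 lay above it, as 5.64% of all genes did, and 0 of the 9 lay below it, as 4.56% of all genes did. GDF15 reached the mean of 1 FPKM only through its value in differentiated cells. On the unadjusted p of this test from the authors' statistics, 2 of the 9 were below the median gene, MDM2 (p = 0.0230) and TP53I3 (p = 0.00512). The median log2 fold change of the 9 genes was -0.23, and 6 of the 9 had a fold change above that of the median gene.

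**Figure D1:**
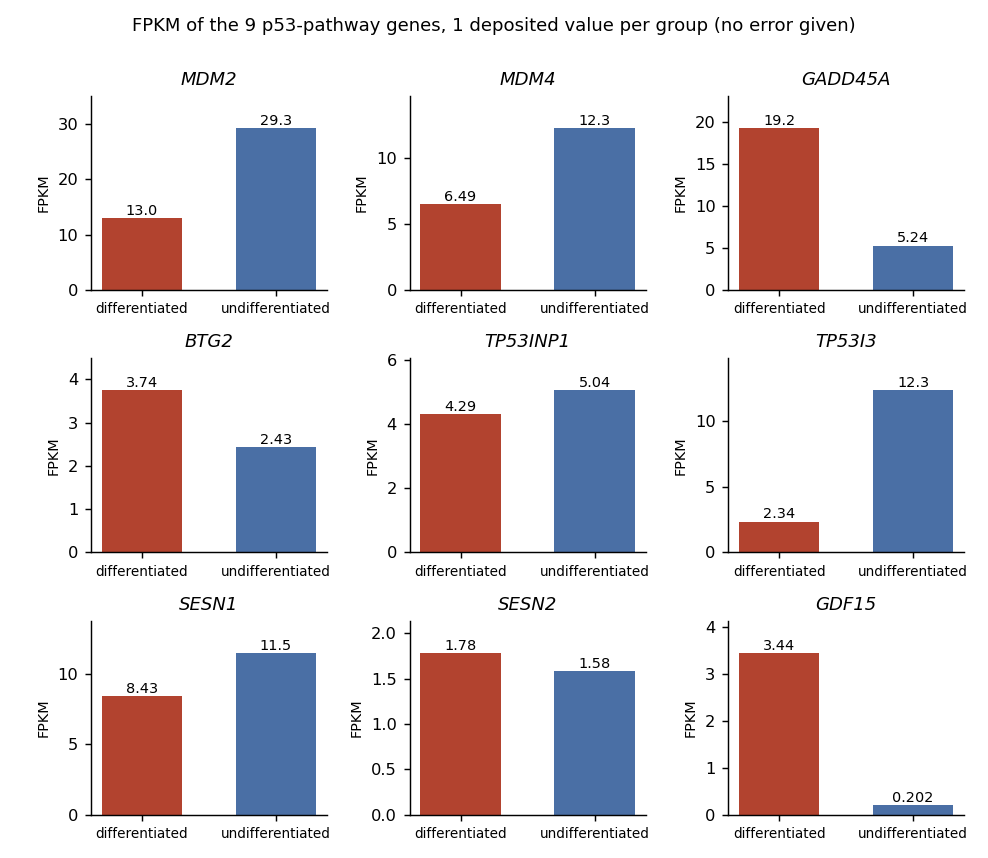
FPKM of the 9 genes, with the value of differentiated cells in red and that of undifferentiated cells in blue; each bar is the authors' single value for a group and each panel has its own axis from 0. GADD45A and GDF15 stand higher in differentiated cells (19.2 against 5.24 FPKM and 3.44 against 0.202 FPKM), and MDM2, MDM4 and TP53I3 lower.

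The first question is how the 2 inhibitors of p53 differed. MDM2, which lies on chromosome 12 from 69201971 to 69239320 (hg19), had 13.0 FPKM in differentiated cells, against 29.3 FPKM in undifferentiated cells. In undifferentiated cells it was the most abundant of the 9 genes and stood at or above 84.2% of tested genes; in differentiated cells it came second, at or above 78.3%. For MDM2 the authors' deposited table gave a log2 fold change of -1.17 (q = 2.64e-05); the implied standard error was 0.24 and the 95% interval ran from -1.64 to -0.70. Less the median gene, the log2 difference was -0.55, which did not pass the normal test on the authors' statistics (adjusted p = 0.147). MDM4, on chromosome 1 from 204485507 to 204527248 (hg19), had 6.49 FPKM in differentiated cells, against 12.3 FPKM in undifferentiated cells. For MDM4 the authors' deposited table gave -0.92 (q = 0.00499), with an implied standard error of 0.27. Less the median gene, its log2 difference was -0.30 by the authors' statistics (adjusted p = 0.628). Both inhibitors were thus lower in FPKM, and neither was shown to lie apart from the median gene. The ratio of MDM2 to MDM4 in FPKM was 2.01 in differentiated cells and 2.38 in undifferentiated cells. Their log2 fold changes differed by -0.25, with a 95% interval from -0.96 to 0.47.

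MDM2 is transcribed from a constitutive promoter and from a second, p53-responsive promoter inside its first intron, and the table gives 1 value for both. The 250 bases before each start, from RefSeq on GRCh38.p14 (plus strand), are shown because only the second holds stretches like a p53 site. Capitals mark each 20-base stretch with at most 3 mismatches to the p53 response element consensus, a pair of half-sites with no spacer that reads the same on both strands. The first window is chr12:68807922-68808171 and the second chr12:68808767-68809016.
MDM2 first promoter: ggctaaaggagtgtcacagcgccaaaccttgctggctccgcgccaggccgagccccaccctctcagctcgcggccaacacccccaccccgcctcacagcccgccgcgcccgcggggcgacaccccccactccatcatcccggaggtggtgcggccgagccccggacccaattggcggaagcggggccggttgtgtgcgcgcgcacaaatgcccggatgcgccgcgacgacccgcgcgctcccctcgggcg
MDM2 second promoter: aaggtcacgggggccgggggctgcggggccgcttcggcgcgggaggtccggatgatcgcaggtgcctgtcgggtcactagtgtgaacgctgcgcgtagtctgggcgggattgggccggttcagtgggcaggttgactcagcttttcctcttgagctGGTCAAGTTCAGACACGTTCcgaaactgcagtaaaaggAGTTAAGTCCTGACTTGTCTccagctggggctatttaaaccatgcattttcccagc

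The 2 marked stretches of the second MDM2 window begin 94 and 56 bases before the start, and carry 2 and 3 mismatches. Of 35116 RefSeq promoter windows of the same length, 4.36% hold a stretch with at most 3 mismatches and 0.561% one with at most 2. RefSeq windows were matched for 7 of the 9 genes, 12 windows in all, and none for GADD45A and TP53INP1. Of the 250 bases, 241 of the GDF15 window and all 250 of the TP53I3 window lay in exons of the gene. Besides the second MDM2 promoter, for which RefSeq lists 2 nearby starts, 1 of the 3 SESN1 windows held such a stretch and the other windows held none. None of the 12 held TGATGNAA, an ATF4-type element searched on both strands, which 3.14% of all windows hold. A match describes the letters of the window and is not a measured binding site. MDM2, with 2 matches, was lower in FPKM in differentiated cells but not apart from the median gene. Its single value covers both promoters, and the part of these stretches in it was not tested.

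**Figure D2:**
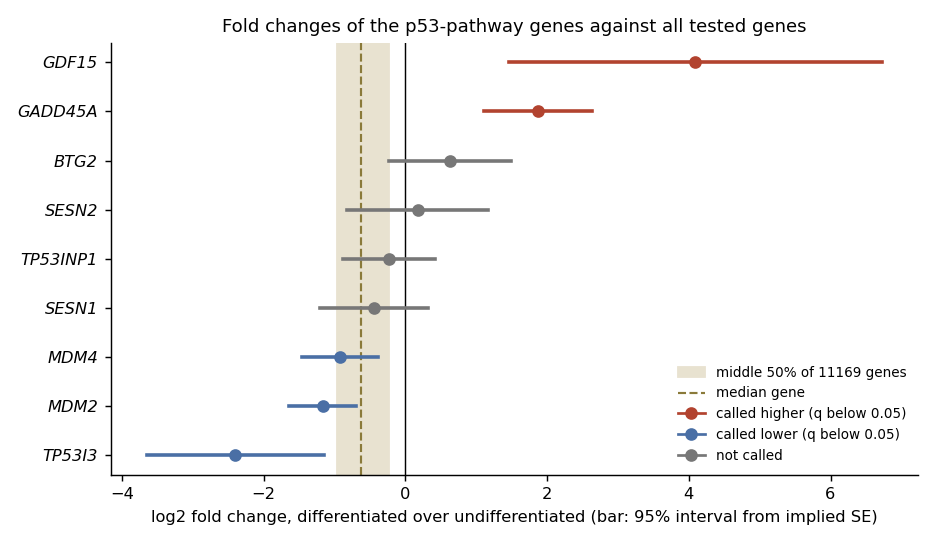
Log2 fold change of each gene (differentiated over undifferentiated) with its 95% interval from the implied standard error; red genes were called higher by the authors, blue genes lower and grey genes not called. The shaded band holds the middle 50% of 11169 genes and the dashed line is their median of -0.62; the intervals of MDM2 and MDM4 reach into the band, and those of GADD45A and GDF15 lie to the right of it.

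Among the targets that slow cell division, GADD45A rose. The gene encodes a small stress protein that binds PCNA and the mitotic kinase CDK1, and lies on chromosome 1 from 68150860 to 68154021 (hg19). GADD45A had 19.2 FPKM in differentiated cells, against 5.24 FPKM in undifferentiated cells, the highest level of the 9 genes in differentiated cells and the fifth in undifferentiated cells. That was 3.67-fold higher, or 1.88 on the log2 scale of the authors' deposited table (q = 3.12e-05). The implied standard error was 0.39 and the 95% interval ran from 1.11 to 2.64. Less the median gene the log2 difference was 2.50 by the authors' statistics (adjusted p = 2.12e-08), and 99.2% of the 11169 genes had a lower fold change. The 2 paralogs of GADD45A were scarce. GADD45G had 0.399 FPKM in differentiated cells and 1.46 FPKM in undifferentiated cells, which the authors' deposited table gave as a log2 change of -1.87 and did not call (q = 0.188). GADD45B had 0.367 FPKM in differentiated cells and 0.212 FPKM in undifferentiated cells and was not tested by the authors. The fold change of GADD45A exceeded that of GADD45G by a log2 of 3.74, with a 95% interval from 1.46 to 6.03.

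BTG2 encodes an antiproliferative cofactor of the CCR4-NOT deadenylase, and lies on chromosome 1 from 203274664 to 203278729 (hg19). It had 3.74 FPKM in differentiated cells, against 2.43 FPKM in undifferentiated cells. BTG2 was not called by the authors' deposited table, which gave a log2 fold change of 0.62 (q = 0.282) with an implied standard error of 0.44. Set against the median gene by the authors' statistics it was higher by 1.24 on the log2 scale and just passed (adjusted p = 0.0461), and that call was lost with quantile normalization (adjusted p = 0.0931), with a running median of genes of like expression (0.0827) and with no filter on low values (0.0587). Its relatives BTG1, BTG3, TOB1 and TOB2 were not called either. Of all 7 tested paralogs of the 9 genes the authors' deposited table called 0, where it called 30.4% of all tested genes. At an unadjusted p below 0.05 it also called 0 of these paralogs. BTG1 had 6.41 FPKM in differentiated cells and 6.38 FPKM in undifferentiated cells, and BTG3 had 6.52 FPKM in differentiated cells and 4.26 FPKM in undifferentiated cells. TOB1 had 4.50 FPKM in differentiated cells and 5.27 FPKM in undifferentiated cells, and TOB2 had 1.26 FPKM in differentiated cells and 2.13 FPKM in undifferentiated cells. BTG2 and BTG3 had nearly the same log2 fold change, with a difference of 0.01 and a 95% interval from -1.28 to 1.29.

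TP53INP1 encodes a stress-induced nuclear protein that takes part in cell death and autophagy, and lies on chromosome 8 from 95938200 to 95961615 (hg19). It had 4.29 FPKM in differentiated cells and 5.04 FPKM in undifferentiated cells. It was not called: the authors' deposited table gave -0.23 on the log2 scale (q = 0.633), with a 95% interval from -0.88 to 0.42. Less the median gene the sign turned, to 0.39 by the authors' statistics (adjusted p = 0.595). Its paralog TP53INP2 had 1.70 FPKM in differentiated cells and 1.80 FPKM in undifferentiated cells and was not called (q = 0.921 in the authors' deposited table).

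Of the targets that act on redox state and growth signalling, TP53I3 fell. TP53I3 encodes a quinone oxidoreductase that raises reactive oxygen species on the way to cell death, and lies on chromosome 2 from 24300303 to 24308085 (hg19). The gene had 2.34 FPKM in differentiated cells, against 12.3 FPKM in undifferentiated cells. It was the second most abundant of the 9 genes in undifferentiated cells and the eighth in differentiated cells. The authors' deposited table gave a log2 fold change of -2.40 for TP53I3 (q = 0.00144). The implied standard error was 0.63, and the 95% interval ran from -3.64 to -1.16. Of the 11169 genes, 0.689% had a lower fold change. Less the median gene, the log2 difference of -1.78 by the authors' statistics fell just outside the threshold (adjusted p = 0.05002) and was not counted as apart; it passed with quantile normalization (adjusted p = 0.037) and with no filter on low values (0.0453). TP53I3 and MDM2, both known p53 targets, were thus both called lower, and neither was counted as apart from the median gene.

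SESN1 and SESN2 encode sestrins, stress-induced proteins that restrain the growth kinase complex mTORC1 and limit peroxides. SESN1, on chromosome 6 from 109307640 to 109415708 (hg19), had 8.43 FPKM in differentiated cells and 11.5 FPKM in undifferentiated cells. For SESN1 the authors' deposited table gave -0.45 on the log2 scale (q = 0.396), with a 95% interval from -1.20 to 0.31, and less the median gene it was 0.18 (adjusted p = 0.891). SESN2, on chromosome 1 from 28585963 to 28609002 (hg19), was scarcer, with 1.78 FPKM in differentiated cells and 1.58 FPKM in undifferentiated cells. For SESN2 the authors' deposited table gave 0.17 (q = 0.831), with a 95% interval from -0.82 to 1.17, and less the median gene it was 0.79 (adjusted p = 0.406). The third sestrin, SESN3, had 9.94 FPKM in differentiated cells and 11.2 FPKM in undifferentiated cells and was not called (q = 0.729 in the authors' deposited table). None of the 3 sestrins was shown to change, and the intervals of SESN1 and SESN2 hold both rises and falls. The fold changes of SESN2 and SESN1 differed by a log2 of 0.62, with a 95% interval from -0.64 to 1.87.

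The SESN1 window that holds a p53-type stretch is shown as well. SESN1 was not called, and the part of this stretch in its value was not tested. It covers the 250 bases before the most downstream of the 3 SESN1 starts, chr6:109008989-109009238 on the minus strand (RefSeq, GRCh38.p14), and the capitals mark a stretch with 3 mismatches that begins 49 bases before the start.
SESN1 promoter: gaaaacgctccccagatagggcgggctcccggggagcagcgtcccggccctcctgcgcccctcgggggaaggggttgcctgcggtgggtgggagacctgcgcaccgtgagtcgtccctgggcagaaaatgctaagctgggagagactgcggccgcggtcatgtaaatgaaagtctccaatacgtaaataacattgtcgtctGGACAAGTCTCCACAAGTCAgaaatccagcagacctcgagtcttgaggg

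GDF15 encodes a secreted stress hormone of the TGF-beta superfamily. It lies on chromosome 19 from 18496968 to 18499986 (hg19). The gene had 3.44 FPKM in differentiated cells, against 0.202 FPKM in undifferentiated cells, where it was the lowest of the 9 genes. The authors' deposited table gave a log2 fold change of 4.09 (q = 0.0118), the largest of the 9 genes. Its implied standard error of 1.34 was also the largest of the 9, and exceeded that of 98.5% of genes. The 95% interval accordingly ran from 1.46 to 6.72. With a pseudocount of 1 FPKM the log2 fold change was 1.89, so its size rests on the low value in undifferentiated cells. The difference from the median gene was 4.71 on the log2 scale by the authors' statistics (adjusted p = 0.00802). Since GDF15 passed the filter on the mean only through differentiated cells, the test was also made with no filter, over all 12729 genes, and gave 4.68 from the authors' statistics (adjusted p = 0.00942). The listed locus of GDF15 is shared with the microRNA gene MIR3189, which was listed at 0 in both groups; the other 8 genes shared no locus with another row.

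**Figure D3:**
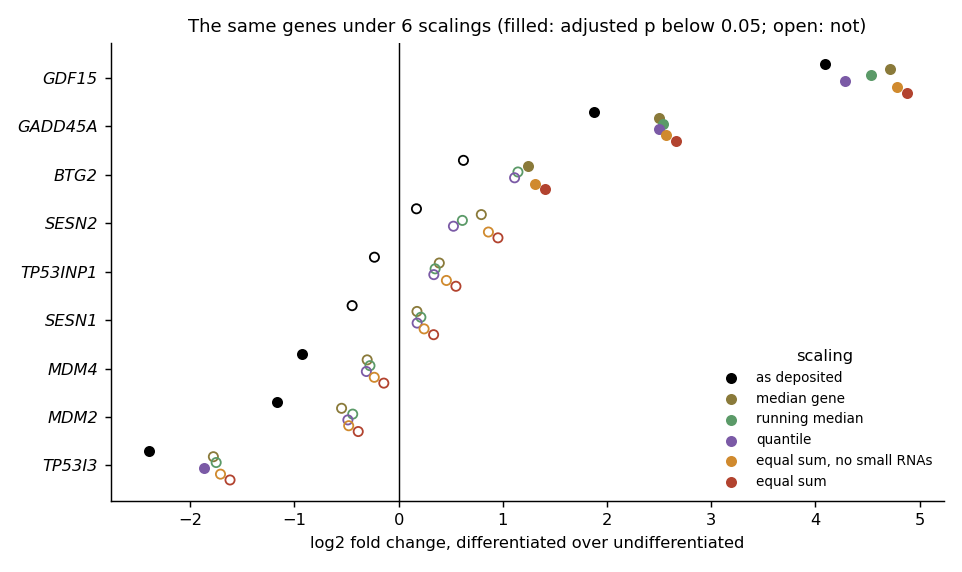
Log2 fold change of each gene (differentiated over undifferentiated) as deposited and under 5 other scalings of the same values; filled points have an adjusted p below 0.05. GADD45A and GDF15 are filled under all 6, MDM2 and MDM4 only as deposited, and SESN1 and TP53INP1 change sign.

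The order of the levels also changed, although the table gives no error for a level and neighbours in the order cannot be tested. From high to low, differentiated cells had GADD45A, MDM2, SESN1, MDM4, TP53INP1, BTG2, GDF15, TP53I3 and SESN2. Undifferentiated cells had MDM2, TP53I3, MDM4, SESN1, GADD45A, TP53INP1, BTG2, SESN2 and GDF15. MDM2 made up 20.7% of the summed FPKM of the 9 genes in differentiated cells and 36.6% in undifferentiated cells.

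Other genes of the pathway were taken from lists. Of 60 tested p53 targets outside the 9 genes, which act in arrest, cell death, DNA repair and metabolism, the authors' deposited table called 4 higher and 6 lower. That is 6.67% and 10.0% of them, against 2.43% and 28.0% of all tested genes. The 55 of them that averaged at least 1 FPKM had a median log2 fold change of -0.27, against -0.62 over all such genes. Against the median gene 9 of these 55 were higher and 4 lower, where 5.64% and 4.56% of all genes were. The called genes moved in both directions and came from different branches.

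Among 12 tested arrest genes, CDKN1A and PLK2 were called higher and GTSE1 lower. Over all tested genes 2.43% were called higher and 28.0% lower, the shares to set beside the calls of each list here. Against the median gene 4 of the 12 lay above and 1 below, where 5.64% and 4.56% of all genes did. Those above were CDKN1A, PLK2, CCNG1 and PHLDA3, and the one below was GTSE1. The authors' deposited table called neither CCNG1 nor PHLDA3. CDKN1A, which encodes the cyclin-dependent kinase inhibitor p21, had 27.6 FPKM in differentiated cells and 5.37 FPKM in undifferentiated cells, and the authors' deposited table gave 2.36 on the log2 scale (q = 4.60e-10; implied standard error 0.34). The polo-like kinase gene PLK2 had 6.49 FPKM in differentiated cells and 2.40 FPKM in undifferentiated cells (q = 0.00128 in the authors' deposited table). GTSE1, a mitotic gene whose protein restrains p53, had 1.86 FPKM in differentiated cells and 7.32 FPKM in undifferentiated cells (q = 6.95e-05 in the authors' deposited table). CDKN1A and GADD45A, both arrest genes, were thus both called higher. Of 17 tested cell death genes, the authors' deposited table called PHLDA1 higher (log2 2.24) and BID lower (log2 -1.17). The other 15 were not called. The normal test could set 14 of the 17 against the median gene. Of these, 2 lay above it, PHLDA1 and TNFRSF10B, and 0 below, where 5.64% and 4.56% of all genes did. BID was not apart from the median gene. Of 10 tested repair genes, the authors' deposited table called 0 higher, also at an unadjusted p below 0.05, and called lower only PCNA, the replication clamp (log2 -1.26). Against the median gene 2 of the 10 lay above, DDB2 and RRM2B, and 0 below, where 5.64% and 4.56% of all genes did. PCNA was not apart from the median gene. Among 21 tested metabolic and other targets, the glutaminase gene GLS2 was called higher, with 1.53 FPKM in differentiated cells and 0.315 FPKM in undifferentiated cells (q = 0.0329 in the authors' deposited table). On the log2 scale of the authors' deposited table, the peroxidase gene GPX1 (-1.85) and the lipid transporter gene ABCA12 (-3.18) were among those called lower. ABCA12 was scarce, with 0.284 FPKM in differentiated cells and 2.57 FPKM in undifferentiated cells.

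Many genes whose products act on p53 were called lower. Of 32 tested regulators other than MDM2 and MDM4, the authors' deposited table called 19 lower, or 59.4%, against 28.0% of all tested genes. It called 0 higher, and 0 were higher at an unadjusted p below 0.05. The median log2 fold change of the 31 that averaged at least 1 FPKM was -0.97, against -0.62 over all such genes. The checkpoint kinase gene CHEK1 had 16.9 FPKM in differentiated cells and 44.9 FPKM in undifferentiated cells, or -1.41 on the log2 scale of the authors' deposited table. SETD8 (-1.39), which encodes a methyltransferase of p53, the deubiquitinase gene USP10 (-1.29) and MTA2 (-1.22), a subunit of a deacetylase complex, were also called lower by the authors' deposited table, with these log2 values. The normal test could set 31 of the regulators against the median gene. After adjustment 0 lay above and 0 below it, where 5.64% and 4.56% of all genes did. Before adjustment 0 lay above and 5 below.

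Some further groups bear on the same stress genes. ATF4 and its programme are another route to GDF15, GADD45A and SESN2. Of 20 tested genes of that list, the authors' deposited table called 8 lower and 0 higher, where 28.0% and 2.43% of all tested genes were; 0 were higher at an unadjusted p below 0.05. Of the 18 set against the median gene, 1 lay below it and 0 above, where 4.56% and 5.64% of all genes did. Among those it called lower, the authors' deposited table gave log2 values of -1.56 for PHGDH and -1.54 for PSAT1, which make serine, and of -1.67 for SLC7A5 and -1.94 for SLC7A11, which carry amino acids. SLC7A11 was scarce, with 0.147 FPKM in differentiated cells and 0.565 FPKM in undifferentiated cells. The other 12 of the 20 genes were not called, and the part of ATF4 in the values of GDF15 and GADD45A was not tested. Of 9 tested FOXO programme genes, the authors' deposited table called TXNIP higher (log2 0.80) and BCL2L11 lower (log2 -1.53). Over all tested genes it called 2.43% higher and 28.0% lower. Of 16 cell cycle genes that p53 represses through p21, the authors' deposited table called 14 lower, where 28.0% of all tested genes were, and 8 of the 16 lay below the median gene, where 4.56% of all genes did. The lowest log2 values in the authors' deposited table were those of RRM2 (-2.61), MCM5 (-2.24), CENPF (-2.03) and BIRC5 (-1.79). These genes also mark dividing cells, and the part of p53 in their values was not tested.

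**Figure D4:**
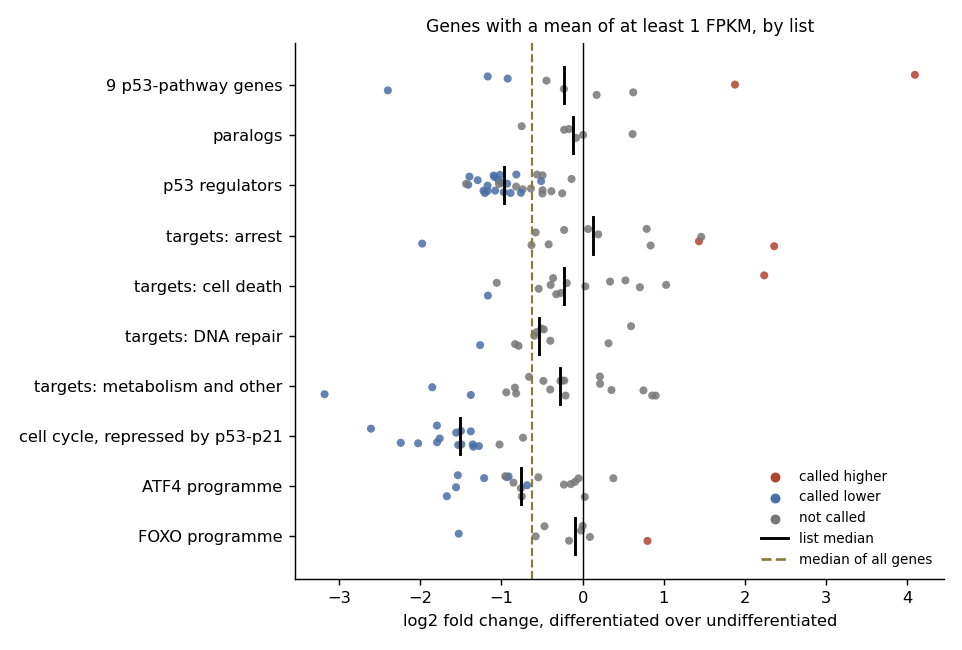
Log2 fold change (differentiated over undifferentiated) of every tested gene with a mean of at least 1 FPKM in each pathway list; colour gives the authors' call, black bars the list medians and the dashed line the median of all genes, and height within a list is arbitrary. The regulators sit around -0.97 and the cell cycle genes around -1.52, while the arrest targets have a median of 0.13.

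The identity of the cells was checked with marker lists. All 12 sympathoadrenal markers were tested. DBH, the gene of dopamine beta-hydroxylase, had 11.9 FPKM in differentiated cells and 50.7 FPKM in undifferentiated cells, and the transcription factor gene GATA2 had 5.34 FPKM in differentiated cells and 38.5 FPKM in undifferentiated cells. Of the 12, the authors' deposited table called 7 lower and 0 higher, where 28.0% and 2.43% of all tested genes were, with 1 higher at an unadjusted p below 0.05. Against the median gene 5 of the 12 lay below and 2 above, where 4.56% and 5.64% of all genes did. The 2 above were the neuronal growth genes GAP43 and STMN2, and the authors' deposited table called neither (q = 0.0752 and 0.979). STMN2 had 357 FPKM in differentiated cells and 360 FPKM in undifferentiated cells. The summed level of the 12 markers was 963 FPKM in differentiated cells and 1465 FPKM in undifferentiated cells. Most of the table was lower too, with a median log2 fold change of -0.62 over genes averaging at least 1 FPKM. The summed level of 9 fibroblast markers was 43.2 FPKM in differentiated cells and 78.0 FPKM in undifferentiated cells, and the authors' deposited table called 4 of the 6 tested ones lower, where 28.0% of all tested genes were. Of the other tested ones, LUM had 18.0 FPKM in differentiated cells and 12.5 FPKM in undifferentiated cells. COL3A1 had 3.51 FPKM in differentiated cells and 3.34 FPKM in undifferentiated cells. Against the median gene 1 of the 6 lay above (LUM) and 1 below (PDGFRA), where 5.64% and 4.56% of all genes were. COL1A2 was listed at 0 in differentiated cells and POSTN at 0 in undifferentiated cells. That of 7 glial markers was 3.73 FPKM in differentiated cells and 4.81 FPKM in undifferentiated cells, with SOX10 and GFAP listed at 0 in undifferentiated cells and FABP7 at 0 in both groups. In such bulk RNA, fewer cells of a type, less RNA per cell and the lower values of the whole table cannot be told apart. The part of these shifts in the values of the 9 genes was not tested.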

How the data were processed

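Total RNA was depleted of ribosomal RNA, copied with random primers and sequenced on an Illumina HiSeq, per the labels' protocols. Per the submitters' processing notes, the tools were TopHat2 2.0.8 and Cufflinks 2.0.2 and the build hg19. The annotation, the library scaling and the way of combining 2 libraries were not given in the sources used here. Per the file headers, the deposited values are 1 FPKM for each gene in each group, the log2 fold change (differentiated over undifferentiated), a test statistic (a score) and a p-value and q-value. In all 12729 tested rows checked, the deposited fold equalled the log2 ratio of both FPKM values and the p-value the normal p of the statistic (tolerance 0.001). Locus starts were raised by 1. Depth is unknown, so no counting interval is given.

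From these values the standard error implied by each statistic was computed (fold over statistic), with its 95% interval, and each fold was tested against the median gene. Both inherit the authors' variance model. Differences between 2 genes' folds take their errors as independent. The test was checked on simulated data drawn with the same implied standard errors and a shared shift. That check cannot show whether those errors are right for these libraries. Genes outside the 9 were named by a rule: all paralogs, and per list up to 4 called genes with the largest fold, or the 2 most abundant where none was called. Other genes were chosen after their values were seen: LUM, COL3A1, COL1A2, POSTN, SOX10, GFAP, FABP7, GAP43, STMN2, CCNG1, PHLDA3, TNFRSF10B, DDB2, RRM2B and ATF4. All 197 list entries found a row, 2 of them under another symbol. Some genes that the rule names are not reported here. The genes, lists and rules were chosen with earlier results of these data known. With 2 values per gene, no gene was named for a like pattern. The tools were Python 3.11.15 with scipy 1.17.1, pandas 2.3.3, matplotlib 3.10.9 and numpy 2.4.6. Alternatives covered the scaling, filter, threshold and pseudocount.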

Additional observations from a re-analysis of the deposited data

How the results depend on the processing

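The alternatives changed 1 choice at a time. GADD45A and GDF15 were called higher in the authors' deposited table and under all 4 other scalings here, and SESN2 was called under none. On the log2 scale, rescaling FPKM to an equal sum gave -0.39 for MDM2, -0.14 for MDM4, -1.62 for TP53I3, 1.40 for BTG2, 0.34 for SESN1 and 0.55 for TP53INP1. The equal sum without small RNAs gave -0.48, -0.23, -1.71, 1.31, 0.24 and 0.46 for the same genes. Under both, MDM2, MDM4 and TP53I3 were no longer called and BTG2 was (adjusted p = 0.0181 and 0.0319 from the authors' statistics). Quantile normalization gave -0.49 for MDM2, -0.31 for MDM4, 0.18 for SESN1 and 0.34 for TP53INP1, with TP53I3 still called. A running median of genes of like expression gave -0.44 for MDM2, -0.27 for MDM4, -1.75 for TP53I3, 0.21 for SESN1 and 0.35 for TP53INP1, with the first 3 no longer called. Each of these 4 scalings turned the sign of SESN1 and TP53INP1, and each moved the log2 folds of all 9 genes upwards.

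At q below 0.01, GDF15 (4.09) was lost, leaving 1 of the 9 genes higher, and the whole table had 171 higher and 2190 lower calls, against 311 and 3582. A mean of at least 5 FPKM left 1 of the 9 higher, 1 above the median gene and 113 higher calls in the table, since fewer genes are tested. With log2(FPKM + 1) GDF15 had 1.89. Quantile normalization and no filter on low values each put 1 of the 9, TP53I3, below the median gene. In the whole table, an adjusted p below 0.01 left 396 genes above and 273 below the median gene, against 630 and 509, and the equal sum left 313 below. A mean of at least 1 FPKM left 0 metabolic targets called higher.

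Depth is unknown, and low values such as that of GDF15 carry large implied errors. No paired analysis was possible because the table holds 1 value per group. For the same reason leaving out each replicate in turn was not run.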
